A study of Mus musculus with 8 samples.

Results

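The clock output factors and ROR receptors are 9 genes of the estimated count table, taken by gene symbol: Dbp, Tef, Hlf, Nfil3, Ciart, Usp2, Bhlhe40, Bhlhe41 and Rora. All 9 were among the 45706 genes of the table and all 9 were among the 14629 that passed the filter on low counts. They were measured by RNA sequencing in the liver of 8 female C57BL/6J mice, 1 library per mouse. The 4 WT mice carried wild-type PLIN5, a lipid droplet protein, and the 4 S155A mice carried a whole-body CRISPR/Cas9 knock-in of S155A, which replaces a serine of PLIN5 by alanine. All mice were 4 months old, were kept on 12 h light and 12 h dark, and had been fasted overnight before the liver was taken. The hour at which each liver was taken is not given in the sources used here. The labels also give an animal number for each mouse, which was 123, 856, 869 and 89 for WT replicates 1 to 4 and 118, 830, 831 and 90 for S155A replicates 1 to 4. These numbers fall into a low range, under 200, and a high range, over 800, with 2 WT and 2 S155A mice in each. What the ranges stand for (a cohort, a litter or a day) is not given in the labels, so anything that differed between them cannot be told apart from the number.

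The circadian clock of a liver cell is a loop in which BMAL1 (encoded by Arntl) with CLOCK or NPAS2 binds E-boxes and drives Per, Cry and Nr1d genes, whose products then shut the drive down. The same loop drives output factors that pass the rhythm on to metabolic genes. DBP, TEF and HLF are activators of the PAR bZIP family that bind D-boxes, and NFIL3 (E4BP4) is a repressor that binds the same sites. RORα activates, and the REV-ERB receptors repress, at ROR response elements, among them those of Arntl and Nfil3. CIART (CHRONO), BHLHE40 (DEC1) and BHLHE41 (DEC2) are repressors that act on the BMAL1 and CLOCK pair, and USP2 is a deubiquitinase with strongly rhythmic RNA in liver. In mouse liver, Dbp RNA is known to rise and fall steeply over the day, in antiphase to Arntl.

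Library totals were between 39709785 and 54540864 estimated counts. The knock-in changes a codon of Plin5, so the level of this gene does not check the genotype. Plin5 was at 254, 194, 183 and 194 CPM in WT replicates 1 to 4. In S155A replicates 1 to 4 it was at 457, 276, 192 and 386 CPM. CPM is a gene's count per fixed number of counts, with normalized library sizes. Its log2 fold change between the genotypes was 0.67 (SE 0.24, unadjusted p = 0.0193, adjusted p = 0.993, edgeR). Between the ranges Plin5 had -0.55 (SE 0.17, unadjusted p = 0.0106, adjusted p = 0.262, edgeR). The 6 hepatocyte markers summed to between 87528 and 125353 CPM in every mouse, and the tissue is read as whole liver, although the labels name both liver and hepatocytes. The 6 lymphocyte markers summed to 89.1 CPM in S155A replicate 3 and to between 4.18 and 9.32 CPM in the other 7 mice. The 5 markers of pancreatic acinar cells summed to 26.8 CPM in WT replicate 2 and to at most 0.612 CPM in the others. Both of these mice are in the high range. In bulk liver, fewer cells of a type and less RNA per cell cannot be told apart.

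Dbp, Ciart and Usp2 were among the most variable genes of the liver across the 8 mice, whereas Rora was among the steadier ones. The highest mouse exceeded the lowest by 110-fold for Ciart, 39.9-fold for Usp2, 16.4-fold for Dbp and 8.16-fold for Bhlhe41. The same ratio was 3.76 for Tef, 3.69 for Bhlhe40, 3.65 for Nfil3, 2.34 for Hlf and 1.42 for Rora. The SD of log2 CPM over the 8 mice was 2.53 for Ciart, which ranked 18 of 14629 genes. It was 1.73 for Dbp, ranked 79, and 1.70 for Usp2, ranked 87. It was 0.16 for Rora, ranked 11432, where the median over all genes was 0.27. Per kb of the principal transcript, the mean level was highest for Dbp at 38.6 CPM per kb, followed by Tef at 34.1, Bhlhe40 at 30.6, Usp2 at 14.6, Rora at 13.3, Nfil3 at 9.97, Hlf at 8.66, Ciart at 7.45 and Bhlhe41 at 0.262 CPM per kb. The mice of each gene overlapped those of the next gene in this order for all 8 neighbouring pairs. With the length of all exons together, the order changed and Rora, at 2.63 CPM per kb, came next to last.

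**Figure D1:**
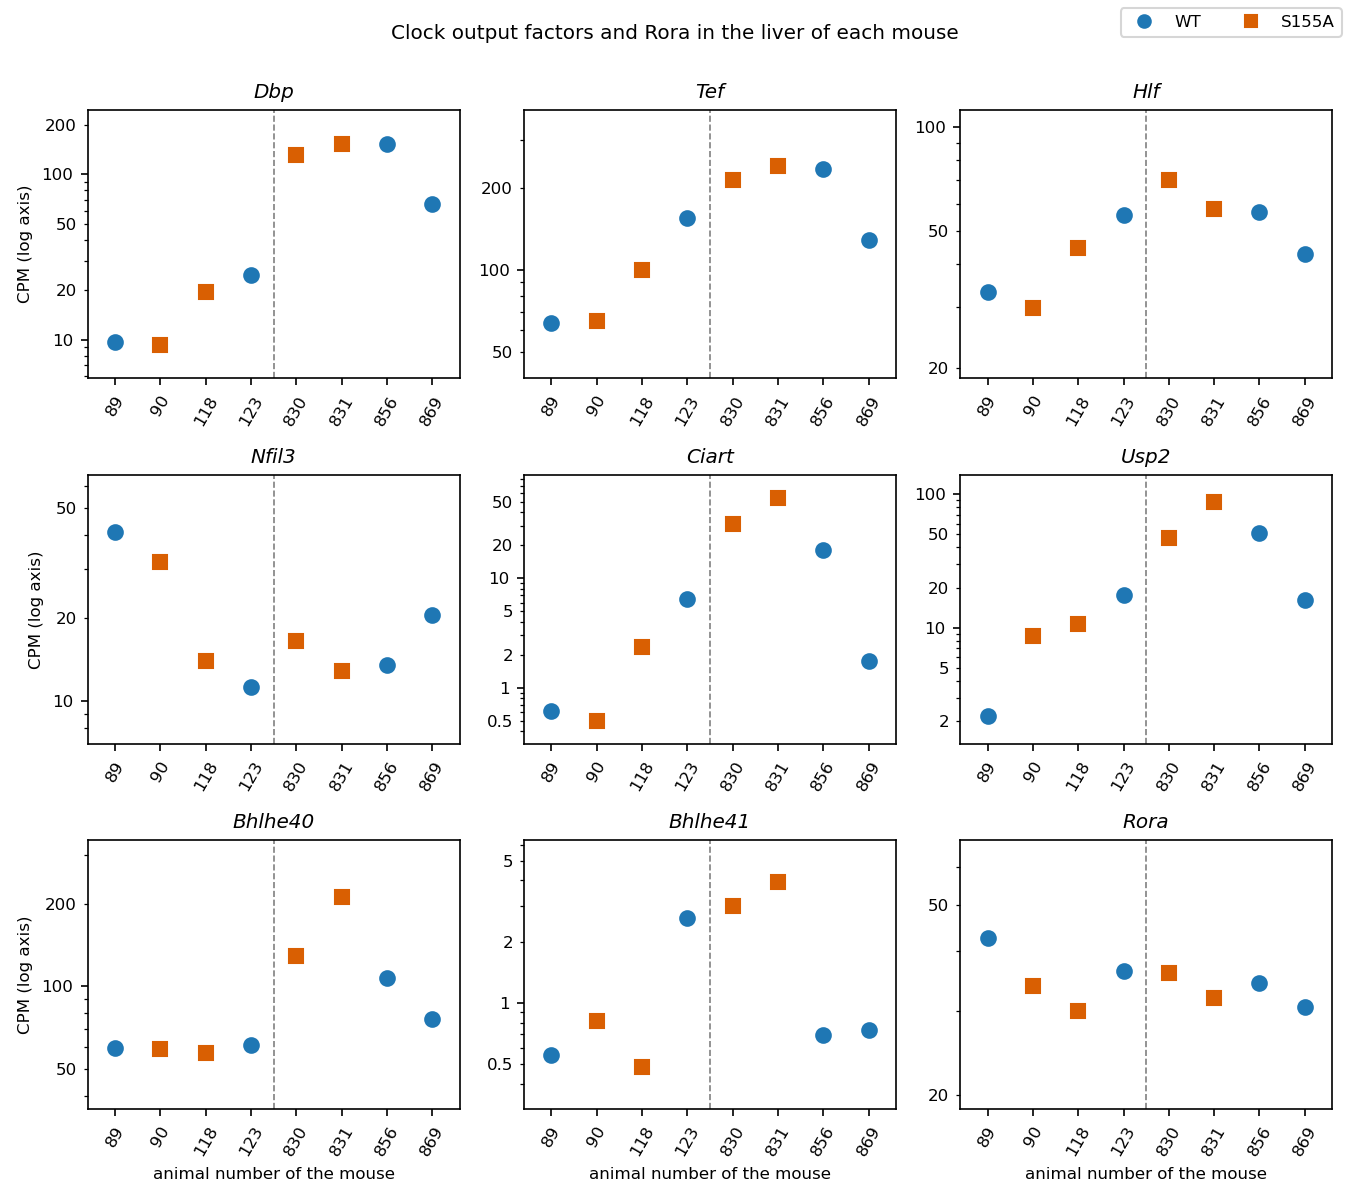
Each panel plots 1 gene in CPM on a log axis for the 8 mice, ordered by animal number, with WT mice as circles, S155A mice as squares and a dashed line between the low and the high range. Dbp lies between 9.33 and 24.5 CPM left of the line and between 66.1 and 153 CPM right of it, in both genotypes, while Rora stays between 30.0 and 42.7 CPM.

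The first comparison, S155A against WT, asks whether loss of this serine, a phosphorylation site, goes with another level of these genes. No gene of the family was called. edgeR's quasi-likelihood test with Benjamini-Hochberg adjustment called 0 of 14629 genes (0%) at an adjusted p under 0.05, with 497 genes (3.40%) at an unadjusted p under 0.05, and DESeq2 called 6 genes, none of them among the 9. At an unadjusted p under 0.05 the family had 0 of 9 genes, and in 0 of 9 did the 4 S155A mice lie apart from the 4 WT mice, where 2.30% of all genes did. The median log2 fold change of the 9 genes was 0.31, against -0.0050 over all genes. Ciart, at 6.77 ± 8.04 CPM in WT and 22.1 ± 25.7 CPM in S155A mice (SD, n = 4 each), had the largest log2 fold change of the 9, 1.70 with a standard error (SE) of 1.25 and an adjusted p of 0.993. It spanned 0.74 to 2.90 when 1 mouse was left out, and was 0.54 with the animal number range as a term. Bhlhe41 had 0.82 (SE 0.71), Usp2 0.80 (0.88) and Bhlhe40 0.59 (0.40) on the log2 scale. Without S155A replicate 3, the mouse with the lymphocyte markers, these were 0.30 for Bhlhe41, 0.012 for Usp2 and 0.11 for Bhlhe40. Usp2 reached 1.67 without WT replicate 2 and Bhlhe41 1.63 without WT replicate 1. The log2 fold change was 0.31 (SE 0.94) for Dbp, 0.10 (0.25) for Hlf and 0.088 (0.45) for Tef. Nfil3 had -0.20 (SE 0.42) and Rora -0.13 (0.12). With the range as a term, Bhlhe41 had 0.50, Bhlhe40 0.42, Dbp 0.074, Hlf 0.054 and Tef -0.043. Nfil3 and Rora then had -0.20 and -0.12. For Dbp the spread within each genotype, an SD of 64.4 CPM about 63.3 CPM in WT and of 74.6 CPM about 78.5 CPM in S155A mice, was about as large as the mean itself.

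The second comparison is between animal numbers over 800 and under 200, with genotype as a term. Dbp, Bhlhe40, Usp2, Tef and Ciart were higher on average in the high range, 7.99-fold for the mean CPM of Dbp, at unadjusted p-values under 0.05, while Hlf, Nfil3, Bhlhe41 and Rora missed that threshold. No gene passed the adjusted threshold in edgeR (0 of 14629, 0%). Of the 9 genes, 5 reached an unadjusted p under 0.05, all of them higher in the high range, where 1877 of all genes (12.8%) passed, 971 higher and 906 lower. The median log2 fold change of the 9 genes was 1.07, against -0.0045 over all genes. The smallest adjusted p over all genes was 0.0618, and Dbp, 5th by unadjusted p, shared it. In 2 of 9 genes, Dbp and Bhlhe40, the mice of the high and the low range did not overlap, where 6.85% of all genes did not.

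**Figure D2:**
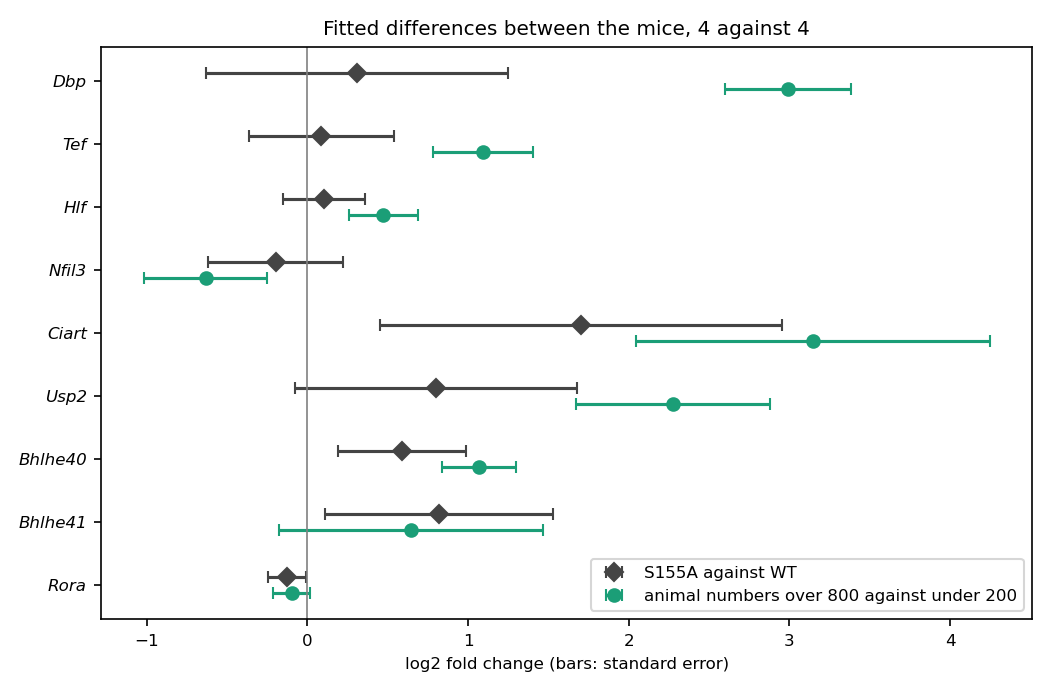
Points give the edgeR log2 fold change of each gene and bars its standard error, diamonds for S155A against WT and circles for animal numbers over 800 against under 200, 4 mice against 4 in each. For Dbp the range contrast is 2.99 and the genotype contrast 0.31; for Rora both lie close to 0.

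Dbp (ENSMUSG00000059824; GRCm38 chr7:45705088-45710203, forward strand) encodes the PAR bZIP activator most often used as a marker of the liver clock's output. It was at 24.5, 153, 66.1 and 9.71 CPM in WT replicates 1 to 4 and at 19.6, 132, 153 and 9.33 CPM in S155A replicates 1 to 4. The 4 mice of the high range were the 4 highest, and the lowest pair was WT replicate 4 and S155A replicate 4, whose animal numbers are 89 and 90. The mean was 15.8 ± 7.49 CPM in the low range and 126 ± 41.3 CPM in the high range (SD, n = 4 each), a log2 fold change of 2.99 with an SE of 0.39 (unadjusted p = 2.73e-05, adjusted p = 0.0618, edgeR). The exact two-sided permutation test of log2 CPM gave p = 0.0286, the smallest that 4 mice against 4 can give. Any gene whose ranges do not overlap gets this value, so it adds nothing to the separation itself. The exact permutation test gave p = 0.0571 for Tef, 0.0571 for Usp2, 0.0857 for Ciart and 0.114 for Hlf. For Bhlhe41, Nfil3 and Rora the exact permutation test gave p = 0.257, 0.371 and 0.543. The Dbp difference between the ranges was present in both genotypes, 2.70 in WT and 3.39 in S155A mice on the log2 scale. It spanned 2.75 to 3.37 when any 1 mouse was left out, and was 2.88 without S155A replicate 3 and 2.79 without WT replicate 2, the mice with the lymphocyte and acinar markers.

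Tef (ENSMUSG00000022389; chr15:81802421-81826863, forward strand), the second PAR bZIP activator, had a narrower span. It was at 155.1, 235, 128 and 64.1 CPM in the WT mice and at 100, 213, 241 and 65.1 CPM in the S155A mice, in the order of the replicates. WT replicate 3 of the high range lay below WT replicate 1 of the low range, so the ranges overlapped. The log2 fold change was 1.09 (SE 0.31, unadjusted p = 0.00653, adjusted p = 0.238). Hlf (ENSMUSG00000003949; chr11:90336536-90390895, reverse strand), the third activator, was at 55.4, 56.9, 43.0 and 33.3 CPM in the WT mice and at 44.7, 70.02, 57.9 and 29.9 CPM in the S155A mice. Its ranges overlapped, and its log2 fold change of 0.47 had an SE of 0.21 and an unadjusted p of 0.0536 (adjusted p = 0.399). In all 3 activators the mice numbered 89 and 90 were the lowest.

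Nfil3 (ENSMUSG00000056749; chr13:52967209-52981073, reverse strand), the repressor of the D-box, was highest in those same mice. It was at 11.2, 13.5, 20.5 and 41.1 CPM in the WT mice and at 13.9, 16.5, 12.9 and 32.0 CPM in the S155A mice. The other 2 mice of the low range were at 11.2 and 13.9 CPM, within or under the span of the high range, and the log2 fold change between the ranges was -0.63 (SE 0.38, adjusted p = 0.526). Leaving out WT replicate 4 brought it to -0.18. The ratio of Dbp to Nfil3 CPM, an activator over a repressor of the same site, was 0.236 in WT replicate 4, 0.292 in S155A replicate 4 and 11.9 in S155A replicate 3, a span of 50.3-fold over the mice.

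Ciart (ENSMUSG00000038550; chr3:95878503-95882251, reverse strand), the CHRONO repressor, had the widest span of the 9 genes. It was at 6.47, 18.2, 1.77 and 0.612 CPM in the WT mice and at 2.34, 31.1, 54.5 and 0.494 CPM in the S155A mice, from between 25 and 2064 estimated counts. The 3 highest mice were of the high range, but WT replicate 3 of that range was below 2 mice of the low range. The log2 fold change between the ranges was 3.15 (SE 1.10, unadjusted p = 0.0183, adjusted p = 0.288), which became 4.62 without WT replicate 1 and 2.43 without S155A replicate 4. Usp2 (ENSMUSG00000032010; chr9:44067021-44095627, forward strand), the deubiquitinase, was at 17.6, 51.4, 16.1 and 2.17 CPM in the WT mice and at 10.6, 46.6, 86.6 and 8.74 CPM in the S155A mice. Again 3 mice of the high range were highest and WT replicate 3 lay within the low range. The log2 fold change was 2.28 (SE 0.60, unadjusted p = 0.00418, adjusted p = 0.205).

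Bhlhe40 (ENSMUSG00000030103; chr6:108660629-108666925, forward strand), the DEC1 repressor, was nearly constant in the low range and higher and more spread in the high range. It was at 61.5, 107, 75.8 and 59.9 CPM in the WT mice and at 57.4, 129, 212 and 59.4 CPM in the S155A mice. The low range was 59.5 ± 1.67 CPM and the high range 131 ± 58.3 CPM (SD, n = 4 each), without overlap. The log2 fold change was 1.07 (SE 0.23, unadjusted p = 0.00118, adjusted p = 0.159, edgeR), with p = 0.0286 in the exact permutation test. It was 0.80 without S155A replicate 3, the highest mouse.

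Bhlhe41 (ENSMUSG00000030256; chr6:145858243-145865558, reverse strand), the DEC2 repressor, had the lowest mean level per kb of the 9 genes. It was at 2.63, 0.698, 0.737 and 0.553 CPM in the WT mice and at 0.482, 2.999, 3.93 and 0.811 CPM in the S155A mice. These values rest on 141, 35, 35 and 28 estimated counts in the WT mice and on 26, 145, 149 and 41 in the S155A mice. The high mice were WT replicate 1 of the low range and both S155A mice of the high range, and the log2 fold change between the ranges was 0.65 (SE 0.82, adjusted p = 0.791), turning to -0.034 without S155A replicate 1. Rora (ENSMUSG00000032238; chr9:68653786-69388246, forward strand), the receptor RORα, was at 36.4, 34.3, 30.6 and 42.7 CPM in the WT mice and at 30.0, 36.0, 31.9 and 33.8 CPM in the S155A mice. The ranges overlapped, with a log2 fold change of -0.098 (SE 0.12, adjusted p = 0.775).

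The calls in the range contrast moved with the tool and with 1 mouse. DESeq2 called 408 of all genes and 3 of the 9, Dbp (adjusted p = 2.3e-07), Bhlhe40 (adjusted p = 8.72e-04) and Tef (adjusted p = 0.0158), and edgeR without WT replicate 3 called 111 genes, among them Dbp (adjusted p = 0.0227) and Bhlhe40 (adjusted p = 0.0425). The 5 sinusoidal endothelial markers summed to between 121 and 161 CPM in the low and between 97.7 and 113 CPM in the high range, without overlap, and 2 of 5 had an unadjusted p under 0.05 (12.8% of all genes). So had 2 of 5 stellate cell, 2 of 6 hepatocyte and 1 of 5 cholangiocyte markers, whose sums overlapped between the ranges. The 1 pancreatic acinar marker that passed the filter also did, but no Kupffer cell, lymphocyte or red blood cell marker. The part of these markers in the result was not tested.

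The third comparison asks whether S155A and WT mice differed by another amount in the high than in the low range. edgeR called no gene in the interaction (0 of 14629, 0%), where 1622 (11.1%) had an unadjusted p under 0.05 and DESeq2 called 285. Of the 9 genes, 2 had an unadjusted p under 0.05, Bhlhe41 and Bhlhe40. For Bhlhe41 the S155A mice were 0.92 below WT in the low range and 2.197 above WT in the high range on the log2 CPM scale, a fitted difference of 3.57 (SE 0.93, unadjusted p = 0.00452, adjusted p = 0.282 in edgeR). Leaving out WT replicate 1 gave 2.05, and the difference was called by DESeq2 (adjusted p = 0.0105) and by edgeR without WT replicate 4 (adjusted p = 0.0483), a fit in which WT replicate 1, the highest WT mouse, stands alone for the WT mice of the low range and is assumed to vary like the other groups. For Bhlhe40 the genotypes differed by -0.056 in the low and by 0.88 in the high range, a fitted difference of 0.95 (SE 0.34, unadjusted p = 0.0205, adjusted p = 0.360). Ciart had the same signs as Bhlhe41, -0.87 in the low and 2.84 in the high range, but its fitted difference of 3.41 had an SE of 1.66 and an adjusted p of 0.495, and leaving out WT replicate 1 or WT replicate 2 gave 0.89 or 5.91. Dbp, Tef and Hlf differed between the genotypes by between -0.30 and -0.19 in the low and by between 0.36 and 0.50 in the high range, each with an adjusted p above 0.6 for the difference. With 2 mice in each cell of this design, S155A replicates 2 and 3 are the whole S155A group of the high range. In the interaction, 3 of 6 hepatocyte, 3 of 5 Kupffer cell and 2 of 6 lymphocyte markers had an unadjusted p under 0.05 (11.1% of all genes). So had 1 of 5 sinusoidal endothelial and 1 of 5 stellate cell markers, but no cholangiocyte or red blood cell marker. The part of these markers in the interaction was not tested.

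The genes of the core clock loop were compared over the same mice. Between the ranges, 10 of 10 loop genes had an unadjusted p under 0.05 (12.8% of all genes), and in 6 of 10 the mice did not overlap (6.85% of all genes), with no adjusted p under 0.0618. Higher in the high range were Per1, Per2, Per3, Cry2, Nr1d1 and Nr1d2, and lower were Arntl, Clock, Npas2 and Cry1. Arntl, which encodes BMAL1, was at 8.26, 1.81, 4.88 and 16.0 CPM in the WT mice and at 8.56, 2.75, 1.61 and 17.4 CPM in the S155A mice. Its order over the mice was exactly the reverse of that of Dbp. The log2 fold change between the ranges was -2.21 for Arntl (SE 0.40, adjusted p = 0.108), 2.12 for Per3 (0.43, adjusted p = 0.147) and 0.68 for Nr1d2 (0.098, adjusted p = 0.0618). Between the genotypes, 0 of 10 loop genes had an unadjusted p under 0.05 (3.40% of all genes). The ratio of Dbp to Arntl CPM ran from 0.535 in S155A replicate 4 to 95.2 in S155A replicate 3, a span of 178-fold.

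**Figure D3:**
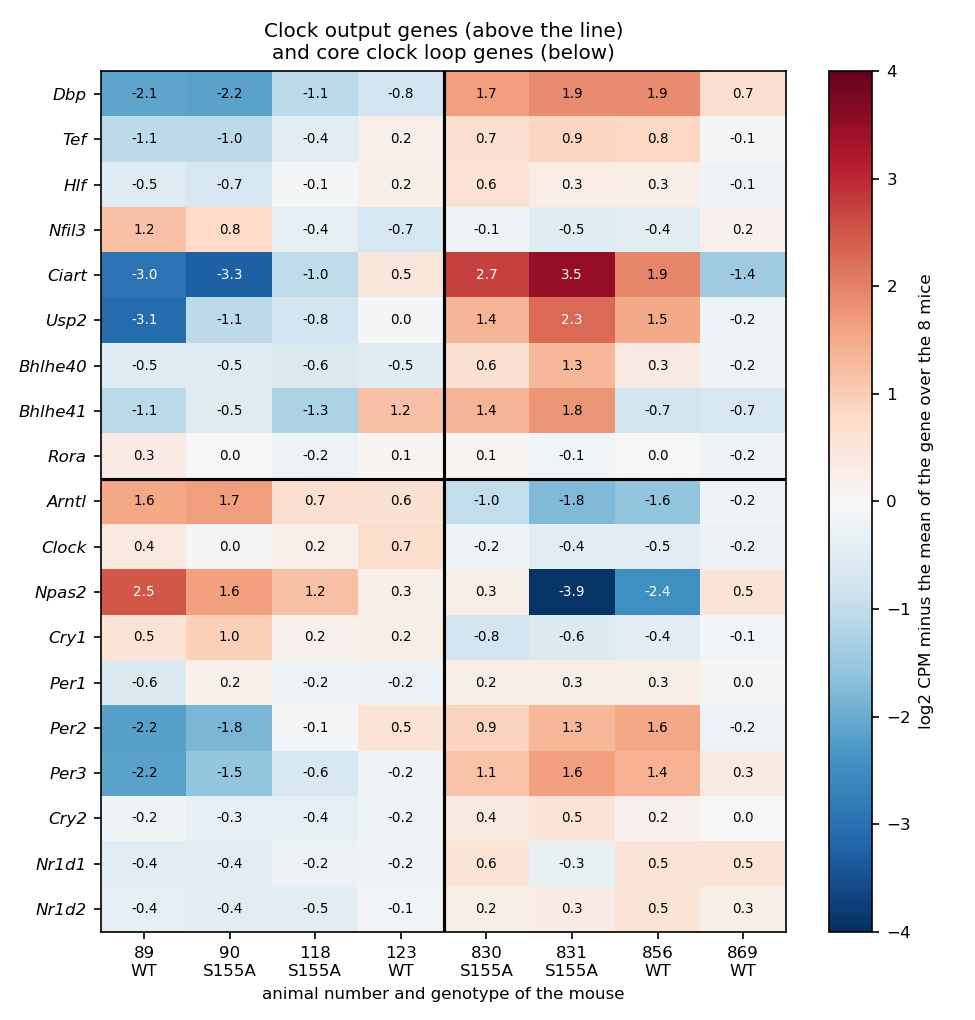
Colours and figures give log2 CPM, here with no prior count, minus the mean of each gene over the 8 mice, with mice ordered by animal number in columns, the 9 genes above the horizontal line and 10 core clock loop genes below it. Dbp runs from -2.2 in mouse 90 to 1.9 in mice 831 and 856, Arntl runs the other way, and mouse 869 sits nearer to the middle than the other mice of the high range.

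Among themselves the 9 genes followed Dbp to different degrees. Over the 8 mice, which share their libraries and fall into the same 2 ranges for every gene, Pearson's r of log2 CPM with Dbp was 0.94 for Tef, 0.91 for Usp2, 0.89 for Ciart, 0.86 for Bhlhe40 and 0.84 for Hlf. Spearman's rho was 0.95 for Tef, 0.95 for Usp2, 0.90 for Ciart, 0.90 for Bhlhe40 and 0.86 for Hlf. It was 0.51 for Bhlhe41, -0.33 for Rora and -0.63 for Nfil3 by Pearson's r, with rho of 0.50, -0.14 and -0.62. Without the 2 mice farthest from the median of Dbp, WT replicate 4 and S155A replicate 4, r was 0.87 for Tef, 0.90 for Usp2, 0.75 for Ciart, 0.87 for Bhlhe40, 0.58 for Hlf and 0.23 for Nfil3, so the negative relation of Nfil3 rested on those mice. Averaged over the 9 genes, the closest of the 28 pairs of mice were WT replicate 4 and S155A replicate 4 (animals 89 and 90), with a mean absolute difference of 0.42 in log2 CPM, and then S155A replicates 2 and 3 (animals 830 and 831), with 0.44. The 4th closest pair, WT replicate 3 and S155A replicate 1 (animals 869 and 118), came from opposite ranges, at 0.52. Neighbours within a range were farther apart, WT replicate 1 and S155A replicate 1 (animals 123 and 118) at 0.72. WT replicates 2 and 3 (animals 856 and 869) were at 0.98. The farthest pair was WT replicate 4 and S155A replicate 3, at 2.78.

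Outside the family, the genes most like Dbp over the 8 mice were Parp10, Hes6, Opa3, Per3 and Plekhf1, with r between 0.97 and 0.99, and the most opposite were Arntl, Tab2, Rnf144a, Clpx and Prkci, with r between -0.99 and -0.97. Clpx, a mitochondrial protease subunit, had rho of -1 with Dbp. The genes most like Nfil3 were Taok3, Atf3, Nr4a1, Zfp707 and Top1mt (r between 0.95 and 0.98). Nr4a1, an orphan nuclear receptor and early response gene, was at 92.8 CPM in WT replicate 4 and 29.1 CPM in S155A replicate 4, and at 8.27 CPM or less in the other 6 mice. The genes most opposite to Nfil3 were Mtfr1l, Ralgapb, 1110059E24Rik, Gm7336 and Dnajc11. Most like Rora were H6pd, Zfp689, Gm28036, Wsb1 and Cxadr (r between 0.91 and 0.93), and most opposite were Coil, Timm22, 1700067K01Rik, Zfp467 and Ube2f. These are the extremes of 14620 genes over 8 mice. Ranked by Spearman's rho instead, 1, 1 and 0 of the 5 most like genes of Dbp, Nfil3 and Rora were also among the top 5. Genes tied in rho were ordered by gene identifier, so these numbers can depend on that order.

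Of 7 genes known as targets of DBP, TEF and HLF (Por, Alas1, Nr1i3, Cyp2a4, Cyp2a5, Cyp2b10, Cyp7a1), all 7 had a positive log2 fold change between the ranges, with a median of 0.41, down to 0.020 for Alas1 (SE 0.20). An unadjusted p under 0.05 was reached by 3 of the 7 (12.8% of all genes). Cyp2a5, coumarin 7-hydroxylase, was at 480, 1348, 404 and 250 CPM in the WT mice and at 362, 1482, 2299 and 339 CPM in the S155A mice. Its log2 fold change was 1.85 (SE 0.41, adjusted p = 0.166). It was 0.88 (0.25, adjusted p = 0.238) for Cyp2a4 and 0.89 (0.31, adjusted p = 0.282) for Cyp7a1, the rate-limiting enzyme of bile acid synthesis. Reads of Cyp2a4 and Cyp2a5, near-identical copies, were divided by the authors' counting, so their separate values are uncertain.

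Of 5 genes known to be regulated by ROR or REV-ERB receptors (Elovl3, Cyp7b1, Cyp8b1, Avpr1a, Insig2), all 5 had a negative log2 fold change between the ranges, with a median of -0.50, the nearest to 0 being -0.0043 for Cyp7b1 (SE 0.16). An unadjusted p under 0.05 was reached by 3 of the 5 (12.8% of all genes). Insig2, which holds back SREBP processing, was at 471, 162, 262 and 409 CPM in the WT mice and at 350, 160, 105 and 374 CPM in the S155A mice, without overlap of the ranges. Its log2 fold change was -1.25 (SE 0.19, adjusted p = 0.0658). Elovl3, a fatty acid elongase, had -1.05 (0.32, adjusted p = 0.251) and Cyp8b1, the sterol 12-hydroxylase, -0.50 (0.20, adjusted p = 0.335). All 4 other rhythmic liver genes of the list had an unadjusted p under 0.05, Wee1, Nampt and Gys2 higher and Lonrf3 lower. The share over all genes was 12.8% for this list and the lists that follow. None of the 6 genes of clock protein turnover had an unadjusted p under 0.05, with Csnk1d the nearest at 0.0501. Of 5 glucocorticoid responsive genes, 2 did, Fkbp5 and Tsc22d3, both higher in the fit over all mice. Fkbp5 differed between the ranges by -0.016 in WT and 1.69 in S155A mice on the log2 scale. For Tsc22d3 these values were 0.77 and 0.82. Between the genotypes, none of the genes of these 5 lists had an unadjusted p under 0.05 (3.40% of all genes).

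Promoter sequences of the family show which of the elements named above lie close to the start. The RefSeq (GRCm38.p6) promoters used here gave 9 windows of 300 bases, from 250 before to 50 after the start, for 8 of the 9 genes, with 2 starts for Tef. The promoter of Bhlhe40 was not analysed here. Each was searched on both strands for the E-box CACGTG, the D-box TTATGTAA or TTACGTAA, the ROR response element TAGGTCA and the cAMP response element TGACGTCA. Shown are Ciart with 3 E-boxes, Tef and Bhlhe41 with 1 each, Nfil3 with a ROR element, and Dbp, with the largest difference between the ranges relative to its SE, where none of these letters was found. They are printed from 5′ to 3′ along the gene, with matches in capitals.
Ciart (chr3:95882179-95882478, reverse strand): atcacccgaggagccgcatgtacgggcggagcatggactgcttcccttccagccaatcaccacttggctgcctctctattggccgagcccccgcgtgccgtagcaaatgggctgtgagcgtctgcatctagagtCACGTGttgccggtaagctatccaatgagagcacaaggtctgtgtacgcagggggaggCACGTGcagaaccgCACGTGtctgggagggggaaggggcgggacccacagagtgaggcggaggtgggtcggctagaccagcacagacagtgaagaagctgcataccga
Tef, first start (chr15:81802423-81802722, forward strand): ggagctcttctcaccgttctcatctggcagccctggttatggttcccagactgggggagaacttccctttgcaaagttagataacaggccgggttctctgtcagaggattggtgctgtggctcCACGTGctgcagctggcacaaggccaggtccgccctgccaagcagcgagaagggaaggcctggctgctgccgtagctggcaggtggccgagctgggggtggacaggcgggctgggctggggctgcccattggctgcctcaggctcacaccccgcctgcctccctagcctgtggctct
Bhlhe41 (chr6:145865371-145865670, reverse strand): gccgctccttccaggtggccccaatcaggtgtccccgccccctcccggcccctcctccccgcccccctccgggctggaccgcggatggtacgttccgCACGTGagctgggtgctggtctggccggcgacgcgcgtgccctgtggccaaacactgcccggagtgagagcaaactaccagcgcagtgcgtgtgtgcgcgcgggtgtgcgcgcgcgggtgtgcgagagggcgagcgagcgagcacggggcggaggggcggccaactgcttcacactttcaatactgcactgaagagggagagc
Nfil3 (chr13:52980990-52981289, reverse strand): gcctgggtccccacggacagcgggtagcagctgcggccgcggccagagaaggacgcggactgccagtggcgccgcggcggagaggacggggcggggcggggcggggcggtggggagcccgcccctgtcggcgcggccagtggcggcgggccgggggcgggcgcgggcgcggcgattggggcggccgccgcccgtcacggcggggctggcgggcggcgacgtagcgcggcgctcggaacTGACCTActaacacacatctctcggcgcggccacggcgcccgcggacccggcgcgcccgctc
Dbp (chr7:45704997-45705296, forward strand): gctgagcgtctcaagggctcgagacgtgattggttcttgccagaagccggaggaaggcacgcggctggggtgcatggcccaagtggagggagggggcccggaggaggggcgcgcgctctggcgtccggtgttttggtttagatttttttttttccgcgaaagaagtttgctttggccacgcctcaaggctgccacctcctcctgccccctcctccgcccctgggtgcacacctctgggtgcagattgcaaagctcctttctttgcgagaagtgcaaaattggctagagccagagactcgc

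The E-boxes of Ciart begin 116, 58 and 44 bases before the start. An E-box was present in 7.15% of the 32851 RefSeq mouse promoters of this length, and 3 or more in 0.0883%, or 29 promoters. Tef had 1 E-box at each start, 127 and 138 bases before it, and Bhlhe41 had 1 at 153 bases before its start. The ROR element of Nfil3, a gene known to be controlled by ROR and REV-ERB receptors, begins 12 bases before the start, and 2.61% of all promoters held one. Hlf had a cAMP response element 9 bases before its start (1.79% of all promoters). No window of the family held the D-box (1.06% of all promoters), and the windows of Dbp, Usp2 and Rora held none of the 4 motifs. The Usp2 window (chr9:44084670-44084969) lies inside the gene, which begins at base 44067021 in the annotation. The sequence around that base was not searched. Dbp and Usp2, without an E-box in this window, and Ciart and Tef, with 1 or more, lay on the same side of the range contrast. So did Bhlhe41, with 1, whose difference did not reach an unadjusted p under 0.05. On the log2 scale the Bhlhe41 difference was -0.73 in WT and 2.38 in S155A mice. Only exact matches in these windows were searched, and a link between the motifs and the levels was not tested.

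**Figure D4:**
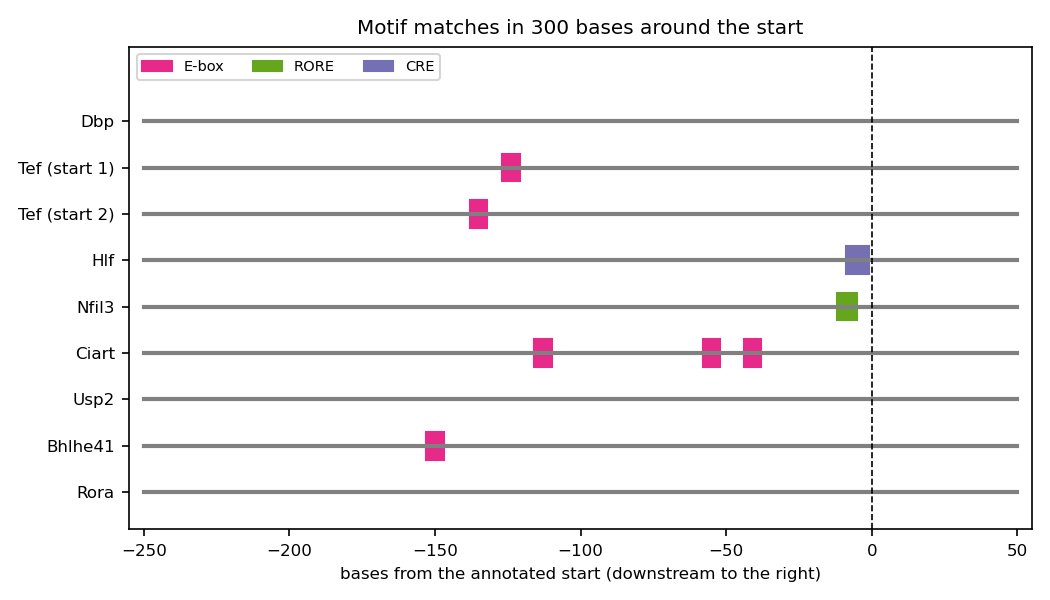
Lines are the 9 RefSeq windows from 250 bases before to 50 bases after the start, with coloured blocks at matches to the E-box, the ROR element (RORE) and the cAMP response element (CRE). Ciart holds 3 E-boxes, Tef 1 at each of its starts and Bhlhe41 1, while Dbp, Usp2 and Rora hold no match.

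In the GENCODE M21 annotation, 7 of the 9 genes overlap a gene on the opposite strand, and it is not stated whether the counting used strand. Sphk2, which overlaps Dbp, was at between 60.3 and 123 CPM, above Dbp itself in the low range. Its log2 fold change between the ranges was -0.36 (SE 0.18, adjusted p = 0.447), opposite in sign to that of Dbp. C920021L13Rik, opposite Ciart, was at between 0.573 and 1.505 CPM, as low as Ciart in WT replicate 4 and S155A replicate 4. The partners of Tef, Bhlhe40 and Rora had at most 30 counts in any mouse, and those of Usp2 and Bhlhe41 were not analysed here.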

How the data were processed

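Liver RNA of 4 WT and 4 S155A mice was sequenced as stranded mRNA libraries. What the authors deposited are salmon estimated counts for each gene, scaled by transcript length but not by library size. The submitters' processing notes list bcl2fastq, STAR, SAMtools, MultiQC, DESeq2 and GRCm38 without roles, and the use of strand in counting is not given in the sources used here. The estimated counts were rounded, filterByExpr kept 14629 of 45706 genes, and edgeR 4.0.16 (R 4.3.3; TMM, quasi-likelihood test, Benjamini-Hochberg over all genes tested) compared genotypes, animal number ranges (with genotype as a term) and their interaction. CPM uses TMM library sizes, and log2 CPM a prior count of 2. SEs of log2 fold changes come from the F statistic. The edgeR test was tried on counts simulated with the dispersions of the fit that holds genotype, range and their interaction. The other tools and tests were not tried on simulated data. A gene of the fixed lists is not reported here. DESeq2 1.42.0, limma-voom (limma 3.58.1), other scalings and filters, covariates and leaving out each mouse were alternatives. Likeness was ranked by Pearson's r over the 8 mice, and the 5 genes at each end for Dbp, Nfil3 and Rora were named. The members, lists and tests were chosen with earlier results of these data known. Gene positions are from GENCODE M21 (GRCm38), in which 45143 of 45706 identifiers were found. Each mouse is 1 library, and p-values measure the spread between these mice. No library was a copy of another (chi-square per gene of at least 40.2 in every pair).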

Additional observations from a re-analysis of the deposited data

Results flagged for a closer look

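Bhlhe41 was at 2.63 CPM in WT replicate 1 and within 0.553 to 0.737 CPM in the remaining 3 WT mice, a gap larger than Dixon's 95% limit for 4 samples. The same mouse also lay apart from the other 3 mice of the low range, which were at between 0.482 and 0.811 CPM for Bhlhe41. These were 2 of 36 groups of 4 mice examined over the 9 genes, where chance alone gives about 1 in 20. Without WT replicate 1, the log2 difference of Bhlhe41 was 1.63 between the genotypes and 1.61 between the ranges, against 0.82 and 0.65 with all mice.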

How the results depend on the processing

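The genotype contrast called no gene of the family under any of its 18 alternatives, and over all genes only DESeq2 made calls, 6. In the range contrast, DESeq2 called 408 genes and 3 of the 9, no filter on low counts 514 and 5, no genotype term 12 and 1 (Dbp, adjusted p = 0.0278), and leaving out 1 mouse between 0 and 111 genes and between 0 and 2 of the 9, most without WT replicate 3 and 1 gene each without S155A replicates 2 and 4. In the interaction, DESeq2 called 285 genes and 1 of the 9, no filter 765 and 4, limma-voom 1 gene and the replicate block 4 genes, and leaving out 1 mouse gave between 0 and 40 genes and between 0 and 1 of the 9, with 40 without WT replicate 4, 5 without S155A replicate 2 and 1 without WT replicate 3. Of the 9 alternatives of the range contrast that kept all mice, 6 called no gene. Without the filter, edgeR's prior degrees of freedom rose from 4.24 to 33.6 in the range contrast. In the interaction they rose from 4.55 to infinity, in the fit that called 765 genes. The causes of these moves were not tested. Scaling by library size alone moved the median log2 difference of all genes in the interaction from -0.0092 to -0.16.

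The sign of a log2 fold change turned in 18 cases. Between the genotypes it turned for Dbp (-0.052, -0.24 and -0.051 without S155A replicates 2 and 3 and WT replicate 4, up to 1.23), for Hlf (-0.086 and -0.033 without S155A replicate 2 and WT replicate 4, up to 0.29), for Nfil3 (0.32 without WT replicate 4, down to -0.58) and for Tef (-0.043 with the range as a term, -0.096, -0.21 and -0.16 without S155A replicates 2 and 3 and WT replicate 4, up to 0.42). Between the ranges it turned for Bhlhe41 (-0.034 without S155A replicate 1, up to 1.61). In the interaction it turned without WT replicate 1 for Dbp (-0.19, up to 1.35), Tef (-0.038, up to 1.23) and Usp2 (-1.17, up to 2.08), and for Nfil3 (0.14, 0.70, 0.63 and 0.31 without S155A replicates 3 and 4 and WT replicates 1 and 3, down to -1.24). The upper and lower ends are over the mice left out in turn.

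For each gene tested, the log2 CPM of a mouse was taken as its deviation from the mean of its genotype. Over all these genes the deviations correlated by 0.056, 0.17, -0.11 and 0.13 in same-numbered WT and S155A mice. In differently numbered ones they correlated by between -0.19 and 0.14. These spans overlap, so the values do not decide whether the numbers pair the mice. With the replicate block the genotype contrast called 0 genes, and a block could not be fitted for the range contrast, in which each number lies in 1 range. Bhlhe41, at 26 to 149 counts, is the member most limited by depth.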

Other observations

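Bhlhe41 had Pearson's r of log2 CPM of 0.51 with Dbp and of 0.74 with Ciart over the 8 mice. The genes whose levels followed it most closely were looked up after its values were seen. The most alike by the same measure were Dstn, an actin depolymerizing factor, at 0.99, Cenpm, a centromere protein, Lman1, a cargo receptor between endoplasmic reticulum and Golgi, Alg12, a mannosyltransferase of the endoplasmic reticulum, and Osbpl1a, an oxysterol binding protein relative, all between 0.97 and 0.98. The most opposite were Lrfn4 at -0.98 and Cactin, Actr1b, Cdk9 and Acot2, between -0.97 and -0.96. None of the 10 is a core clock loop gene. They are the extremes of 14620 genes, of which the loop has only 10, so this absence says little about Bhlhe41.

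Among the glucocorticoid responsive genes, Fkbp5 and Tat differed between the genotypes by another amount in the high than in the low range at an unadjusted p under 0.05, which is 2 of 5 genes of the list against 11.1% of all genes, and neither passed the adjusted threshold. Fkbp5, a co-chaperone of the glucocorticoid receptor, was at 46.5 ± 12.9 CPM in the WT and 126 ± 6.34 CPM in the S155A mice of the high range (SD, n = 2 each), and at 46.6 ± 8.95 and 40.1 ± 12.6 CPM in the low range. Its interaction had an unadjusted p of 0.00154 and an adjusted p of 0.253 in edgeR. Tat, tyrosine aminotransferase, was at 961 ± 203 CPM in the WT and 1722 ± 259 CPM in the S155A mice of the high range, and at 1461 ± 335 and 963 ± 295 CPM in the low range (unadjusted p = 0.00368, adjusted p = 0.282 in edgeR).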
